A study of Mus musculus with 6 samples.

Results

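The 9 mature miRNAs described here come from 5 hairpins at 4 imprinted mouse loci outside the Dlk1-Dio3 domain: H19 (mmu-miR-675-5p and mmu-miR-675-3p), Igf2 (mmu-miR-483-5p and mmu-miR-483-3p), Mest (mmu-miR-335-5p and mmu-miR-335-3p) and Gnas (mmu-miR-296-5p, mmu-miR-296-3p and mmu-miR-298-5p). The mouse prefix is left out from here on. They were chosen by name, each had 1 row, and they are 9 of the 1034 distinct mature miRNAs in the deposited table. Small RNA had been sequenced from nephron progenitors of CD1 mice, the cortical cells that give rise to the nephrons of the kidney. They were taken from embryos (E14.5) or from pups on the day of birth (P0, postnatal day 0), with 3 libraries per stage, no transgene or treatment named in the labels, and no other difference between the groups than stage. For each library, up to 24 kidneys of 1 litter were pooled, digested for 15 min and selected on beads carrying an antibody against Itga8, so a value is that of a litter pool and not of an animal. The genes that define nephron progenitors are messenger RNAs, which this table does not hold, so the labelled cell type was not checked against them.

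An imprinted gene is transcribed from the copy of one parent. H19 is a long non-coding RNA expressed from the maternal copy, and Igf2, its neighbour, encodes a fetal growth factor expressed from the paternal copy. miR-675 is cut from an exon of H19 and is known to repress the growth factor receptor Igf1r, whereas miR-483 lies in an intron of Igf2 and is abundant in Wilms tumour, a childhood cancer that resembles arrested nephron progenitors. miR-335 lies in an intron of Mest, a paternally expressed gene, and miR-296 and miR-298 belong to the Gnas domain. In every hairpin the 2 arms come from the same precursor, and the arm that is loaded more often is called the guide and the other the passenger.

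The mature sequences are shown because each member is defined by its own arm and seed, the bases 2 to 8 that pair with target messenger RNAs. Each is written 5′ to 3′ from RefSeq (build GRCm38.p6) with the seed in capitals, and all 9 matched the table's position and strand.
miR-675-5p: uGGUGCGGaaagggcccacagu
miR-675-3p: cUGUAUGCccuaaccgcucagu
miR-483-5p: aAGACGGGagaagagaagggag
miR-483-3p: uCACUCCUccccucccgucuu
miR-335-5p: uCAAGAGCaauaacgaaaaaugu
miR-335-3p: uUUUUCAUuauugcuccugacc
miR-296-5p: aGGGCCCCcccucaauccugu
miR-296-3p: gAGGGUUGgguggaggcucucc
miR-298-5p: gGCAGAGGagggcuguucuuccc

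The 9 members carry 9 distinct seeds. None of the other miRNAs among the 885 in the table with a RefSeq sequence shared a seed with a member. The members' GC content ran from 30.4% for miR-335-5p to 68.2% for miR-296-3p. The 2 members of the Mest locus were the lowest in GC and the other 7 had 54.5% or more.

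To show where the compared arms lie, the hairpins of Mir675, Mir335 and Mir296, 3 of the 4 precursors with both arms among the members, are printed with the arms in capitals and the 5p arm first.
Mir675: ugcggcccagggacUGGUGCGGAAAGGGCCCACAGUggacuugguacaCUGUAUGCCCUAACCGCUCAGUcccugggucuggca
Mir335: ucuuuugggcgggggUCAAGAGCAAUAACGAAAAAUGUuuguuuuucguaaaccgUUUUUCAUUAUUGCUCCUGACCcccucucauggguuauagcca
Mir296: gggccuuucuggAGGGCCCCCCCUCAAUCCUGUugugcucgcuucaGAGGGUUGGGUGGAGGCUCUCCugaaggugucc

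Mir675 (chr7:142577064-142577147, minus strand, GRCm38) lay in an exon of the lincRNA H19 in GENCODE M21. Mir483 (chr7:142654924-142654996, minus strand) lay in introns of Igf2 and of the overlapping gene Gm49394, 77776 bases from Mir675. Mir335 (chr6:30741299-30741396, plus strand) lay in an intron of Mest. Mir296 (chr2:174267047-174267125) and Mir298 (chr2:174267504-174267585), both on the minus strand, were 378 bases apart and inside no other annotated gene.

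The libraries differed in depth, from 2649506 to 34934526 reads summed over the table, and the 2 shallowest were E14.5 replicates 1 and 3. P0 replicate 1 stood apart from its stage: across the 670 miRNAs tested, its mean Pearson correlation was 0.908 with the remaining newborn libraries, lower than the 0.948 with the embryonic ones. Results are therefore given with and without it. Marker miRNAs of other cell types, all of them in the table, summed to less at P0 than at E14.5 in TPM: 26608 to 44921 TPM (reads per base of miRNA scaled to a fixed library total) at E14.5 and 5634 to 8158 at P0 for the 2 endothelial markers, 125247 to 149557 and 57122 to 73624 for the 9 stromal markers, and 4122 to 23183 and 500.2 to 1542 for the 5 epithelial markers of the miR-200 family. The 5 erythroid markers summed to 242 to 417 and 128 to 194 TPM, with miR-486a-3p at 0 in at least 1 library, and the 4 leukocyte markers to 632 to 1202 and 454 to 629 TPM. After median-of-ratios scaling the sums remained below the E14.5 range at P0 for the endothelial (16353 to 29178 and 9094 to 14112) and epithelial markers (2764 to 15058 and 948 to 1719), and overlapped for the stromal (83996 to 87128 and 74213 to 128017), erythroid (162 to 271 and 142 to 364) and leukocyte markers (424 to 781 and 701 to 859). The part of these cell types in the results was not tested, and fewer cells of a type cannot be told apart from less RNA per cell.

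Stage differences were tested with limma on log2(TPM + 1) over all 670 miRNAs averaging 1 TPM or more, and called at an adjusted p-value under 0.05. A typical miRNA fell in TPM, with a median log2 fold change of −1.20 from E14.5 to P0, while after median-of-ratios scaling the median was −0.17. Both scalings are therefore given, and fold changes are read against these medians. All 9 members passed the filter. In TPM, 3 of the 9 were called, all lower at P0 (miR-675-5p, miR-675-3p and miR-335-3p), where 34.2% of all tested miRNAs were called, 32.8% lower and 1.34% higher. After scaling, 2 of the 9 were called, both lower (miR-675-5p and miR-675-3p), where 10.9% of all were called, 5.22% lower and 5.67% higher. The median log2 fold change of the 9 was −1.21 in TPM and 0.06 after scaling, close to the medians of all miRNAs, but the single loci lay far apart. P0 replicate 1 was singled out on these same miRNAs, as the P0 library most like E14.5. Without it 61.0% of all tested miRNAs were called in TPM and 48.0% after scaling. Calls made only without it are to be read against these shares.

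**Figure D1:**
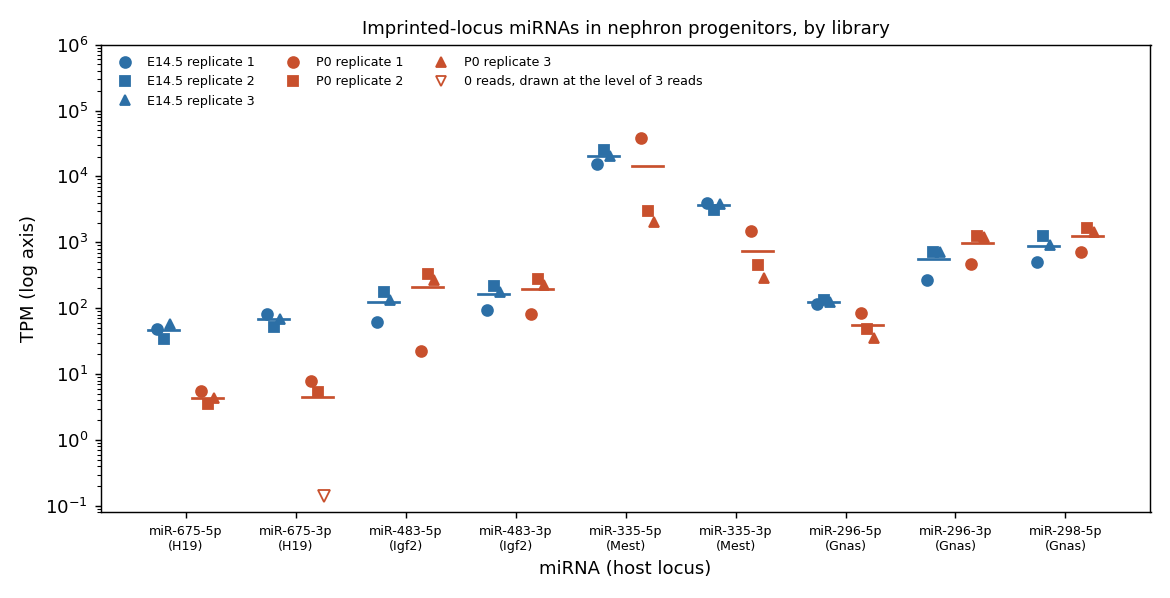
TPM (log axis) of each of the 9 miRNAs in each library, grouped by host locus, with E14.5 in blue and P0 in red and a bar at each stage mean. The miR-675 arms are separated between the stages, the open triangle marks the P0 library with 0 reads of miR-675-3p at the level of 3 reads, and P0 replicate 1 (red circle) lies above the other P0 libraries for miR-335 and below them for miR-483, miR-296-3p and miR-298-5p.

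At the H19 locus both arms of miR-675 fell more than 10-fold in mean TPM. miR-675-5p had 49.2, 33.9 and 58.5 TPM in E14.5 replicates 1 to 3, and its values in P0 replicates 1 to 3 were 5.46, 3.47 and 4.28 TPM. The 3 P0 libraries lay close together and every one was below every E14.5 library, a 10.7-fold difference of the means. miR-675-3p had 82.2, 52.8 and 68.7 TPM at E14.5 and 7.94, 5.45 and 0 TPM at P0. Its stages did not overlap either, and the difference of the means was 15.2-fold. The library at 0, P0 replicate 3, had 92 reads of miR-675-5p and 0 reads of miR-675-3p, where 3 reads would have given 0.140 TPM. In that library 5 of the 432 miRNAs averaging 10 TPM or more were at 0.

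On the log2 scale miR-675-5p changed by −3.14 (SE 0.56, limma adjusted p = 0.00400), or by −1.94 relative to the median of all miRNAs. For miR-675-3p it was −4.13 (SE 0.78, limma adjusted p = 0.00451), the 11th lowest of the 670. After median-of-ratios scaling the changes were −1.96 (SE 0.51, limma adjusted p = 0.0418) and −3.16 (SE 0.87, limma adjusted p = 0.0467). Both arms thus fell under either scaling, and both stayed called in TPM when any 1 library was left out, including P0 replicate 3 with its count of 0 (miR-675-3p −3.16, limma adjusted p = 0.00625). After scaling, a call held only when P0 replicate 1 was the library left out. With upper-quartile scaling the direction held and the adjusted p-values of limma were 0.0523 for miR-675-5p and 0.0553 for miR-675-3p, and with limma-voom on the reads they were 0.0584 and 0.107. The authors' deposited table gave miR-675-5p a log2 fold change of −1.88 (SE 0.72, adjusted p = 0.0563) and miR-675-3p one of −3.70 (SE 2.51, adjusted p = 0.319).

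The arms of Mir675 were nearly balanced in 5 libraries. The 3p arm made up 62.5% of the hairpin's reads (95% Wilson interval 57.3 to 67.5), 60.9% (58.8 to 63.0) and 54.0% (50.2 to 57.8) in the embryonic libraries, and 59.2% (54.7 to 63.6) and 61.1% (54.2 to 67.6) in P0 replicates 1 and 2. In P0 replicate 3 it was 0 of 92 reads (Wilson interval 0 to 4.01), and the limit of 3 reads that a count of 0 allows is a share of up to 3.26%. This library was therefore unlike the other 5 in arm balance, while its miR-675-5p level was like that of the other P0 libraries.

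At the neighbouring Igf2 locus neither arm of miR-483 was called, and the stages overlapped. miR-483-5p had 62.8, 174 and 132 TPM at E14.5 and 22.5, 331 and 269 TPM at P0. The lowest of the 6 values was that of P0 replicate 1 and the 2 highest were the other P0 libraries. miR-483-3p, the arm best known for its abundance in Wilms tumour, had 94.6, 219 and 175 TPM at E14.5 and 81.5, 282 and 222 TPM at P0, with the same order. In both stages the first replicate was the lowest for both arms.

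Against the general fall in TPM the miR-483 arms had log2 fold changes of 0.17 (5p, SE 0.89, limma adjusted p = 0.902) and 0.16 (3p, SE 0.63, limma adjusted p = 0.852), each 1.36 above the median of all miRNAs. After scaling both were at 1.45, with limma adjusted p-values of 0.345 for 5p and 0.160 for 3p. Without P0 replicate 1, miR-483-5p was called higher at P0 both in TPM (1.39, limma adjusted p = 0.0171) and scaled (2.91, limma adjusted p = 0.00143). miR-483-3p was then called higher after scaling only (2.22, limma adjusted p = 0.00292; in TPM 0.70, limma adjusted p = 0.151). A call at this locus was thus made only with P0 replicate 1 left out. Of all tested miRNAs, 61.0% were then called in TPM and 48.0% after scaling.

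The ratio of the summed miR-483 arms to the summed miR-675 arms does not depend on how libraries are scaled. Before birth it was 1.20, 4.54 and 2.41, and at birth 7.76, 68.8 and 115, so every P0 library lay above every E14.5 library. This ratio was formed after the values had been seen and is given without a test. Its value of 115, in P0 replicate 3, has miR-675-5p alone as denominator, since that library had 0 reads of miR-675-3p.

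At the Mest locus the 2 arms of miR-335 gave different pictures. miR-335-5p was the most abundant member, ranking 14th of 1034 by mean TPM at E14.5 and 17th at P0, or 41st at P0 without P0 replicate 1. It had 15607, 24772 and 20587 TPM at E14.5 and 38125, 2965 and 2002 TPM at P0. The highest of the 6 values was thus that of P0 replicate 1, at 15.4 times the mean of the other 2 P0 libraries, and those 2 were the lowest. The passenger arm miR-335-3p had 3983, 3139 and 3845 TPM at E14.5 and 1510.0, 449.7 and 286 TPM at P0. All 3 P0 libraries were below all E14.5 libraries, and P0 replicate 1 was again the highest of its stage.

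For miR-335-3p the log2 fold change in TPM was −2.65 (SE 0.61, limma adjusted p = 0.00777), and scaling gave −1.35 (SE 0.50, limma adjusted p = 0.0894), so it was called in TPM alone. The TPM call was lost when E14.5 replicate 3 was left out (limma adjusted p = 0.0509). miR-335-5p was not called, at −1.71 (SE 0.86, limma adjusted p = 0.127) in TPM and, once scaled, −0.42 (limma adjusted p = 0.740). Without P0 replicate 1 both arms were called lower in TPM, miR-335-5p with −3.03 (limma adjusted p = 1.22e-05) and miR-335-3p with −3.34 (limma adjusted p = 7.58e-06). The same held after scaling, with −1.50 (limma adjusted p = 0.00615) and −1.81 (limma adjusted p = 0.00200). Without that library 61.0% of all tested miRNAs were called in TPM and 48.0% after scaling. The authors' deposited table gave log2 fold changes of −0.83 (adjusted p = 0.429) for the 5p arm and −1.50 (adjusted p = 0.0910) for the 3p arm.

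The guide arm outnumbered the passenger arm of Mir335 in every library. The 5p level was 3.92, 7.89 and 5.35 times the 3p level at E14.5 and 25.2, 6.59 and 6.99 times at P0. P0 replicate 1 was thus set apart by its arm balance as well as by its level, while the other P0 libraries lay within the E14.5 range.

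The Gnas locus gave the members with the highest log2 fold changes in the fit of all 6 libraries and, in Mir296, arms on opposite sides of 0 in TPM. miR-296-3p had 272, 708 and 707 TPM at E14.5 and 470.1, 1234 and 1206 TPM at P0, and miR-298-5p had 499.8, 1254 and 903 TPM at E14.5 and 702, 1630.5 and 1453 TPM at P0. For both, P0 replicates 2 and 3 were the highest of the 6 libraries and P0 replicate 1 lay inside the E14.5 range. miR-296-5p, the other arm of Mir296, had 116, 132 and 123 TPM at E14.5 and 84.9, 48.4 and 35.3 TPM at P0. Here every P0 library was below every E14.5 library, but after scaling the stages overlapped for miR-296-5p and no longer did for miR-296-3p.

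The fold change of miR-296-3p was 0.79 on the log2 scale (SE 0.60, limma adjusted p = 0.302) in TPM and 2.08 (SE 0.64, limma adjusted p = 0.0598) after scaling, 1.98 and 2.25 above the medians of all miRNAs. In the authors' deposited table miR-296-3p was the only member of the 9 with an adjusted p-value under 0.05 (log2 fold change 1.99, SE 0.71, adjusted p = 0.0382), where 10.4% of all miRNAs in that table passed. miR-298-5p had 0.52 (SE 0.56, limma adjusted p = 0.454) in TPM and 1.81 (SE 0.60, limma adjusted p = 0.0736) after scaling. Neither was called with all 6 libraries by stage alone, under TPM or median-of-ratios scaling. Without P0 replicate 1, miR-296-3p was called higher in TPM (1.24, limma adjusted p = 0.0224) as well as scaled (2.77, limma adjusted p = 0.00136), and miR-298-5p after scaling (2.42, limma adjusted p = 0.00180) but not in TPM (0.90, limma adjusted p = 0.0567). For miR-296-5p the change was −1.21 (SE 0.56, limma adjusted p = 0.103) in TPM and 0.06 (limma adjusted p = 0.924) after scaling, so its direction depended on the scaling and it followed the median of all miRNAs. Without P0 replicate 1 it was called lower in TPM (−1.55, limma adjusted p = 0.00354) and not after scaling (−0.05, limma adjusted p = 0.915). These fits without P0 replicate 1 called 61.0% of all tested miRNAs in TPM and 48.0% after scaling.

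**Figure D2:**
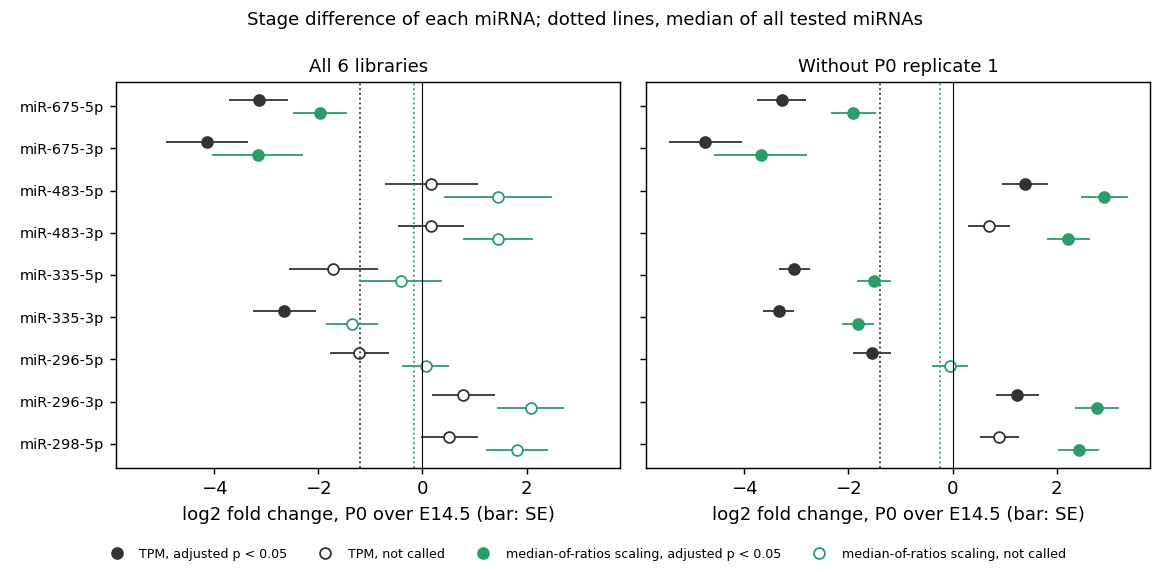
Log2 fold change from E14.5 to P0 with its standard error for each of the 9 miRNAs, in TPM (black) and after median-of-ratios scaling (green), with all libraries (left) and without P0 replicate 1 (right). Filled points were called by limma (adjusted p under 0.05) and dotted lines mark the median of all tested miRNAs. With all libraries the miR-675 arms are filled under both scalings, and without P0 replicate 1 only miR-296-5p is open under scaling. In that last fit 48.0% of all tested miRNAs were called.

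The 3p arm of Mir296 was 2.34, 5.37 and 5.76 times the 5p arm before birth and 5.54, 25.5 and 34.1 times at birth. As a share of the hairpin's reads, the 3p arm took 71.1% (95% Wilson interval 68.2 to 73.8), 84.9% (84.4 to 85.4) and 85.8% (84.7 to 86.8) at E14.5. At P0 it took 85.3% (84.8 to 85.8), 96.4% (96.2 to 96.6) and 97.3% (97.1 to 97.5). P0 replicates 2 and 3 were thus above all E14.5 libraries, and P0 replicate 1 fell between E14.5 replicates 2 and 3. On the log2 scale the mean 3p to 5p ratio was 2.05 ± 0.72 (SD, n = 3) before birth and 4.05 ± 1.40 (SD, n = 3) at birth, with p = 0.2 by exact two-sided permutation (0.5 adjusted over 5 hairpins).

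The 3p arm of Mir298, which is not a member, had 9.68, 7.55 and 5.36 TPM at E14.5 and 5.15, 1.60 and 2.21 TPM at P0. The 5p level was 51.6, 166 and 168 times the 3p level at E14.5 and 136, 1017 and 658 times at P0, so as in Mir296 the major arm gained on the minor arm in P0 replicates 2 and 3. The exact permutation p of this difference was 0.3. The major arms of the 2 neighbouring hairpins stayed within a narrow range of each other: miR-296-3p was 0.54, 0.56 and 0.78 times miR-298-5p at E14.5 and 0.67, 0.76 and 0.83 times at P0.

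**Figure D3:**
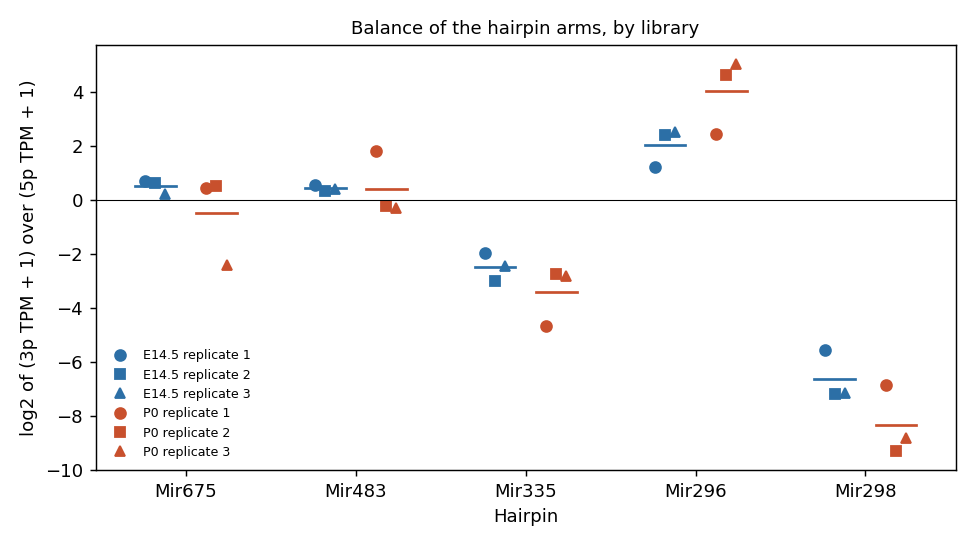
Log2 ratio of the 3p to the 5p arm, each in TPM + 1, for the 5 hairpins in each library, with a bar at each stage mean. Mir675 and Mir483 lie near 0 except for single P0 libraries (replicate 3 for Mir675 and replicate 1 for Mir483), Mir335 and Mir298 lie below 0, and Mir296 lies above 0 with P0 replicates 2 and 3 highest.

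Mir483 showed the same library apart. Its 3p arm took 58.9%, 54.5% and 55.9% of the hairpin's reads at E14.5, 77.5% (95% Wilson interval 76.1 to 78.9) in P0 replicate 1, and 44.9% (44.0 to 45.7) and 44.0% (43.1 to 45.0) in P0 replicates 2 and 3. With 3 libraries against 3 no exact test could go below p = 0.1. None of the 5 hairpins reached that value for the arm ratio, with exact permutation p-values of 0.5 for Mir675, 1 for Mir483 and 0.3 for Mir335. When P0 replicate 1 was left out, the stages no longer overlapped for Mir296 (log2 difference 2.80), Mir298 (−2.42) and Mir483 (−0.69), each with an exact permutation p of 0.1, again the smallest possible. The difference was then −1.46 for Mir675 (exact permutation p = 0.2) and −0.30 for Mir335 (exact permutation p = 0.6). Arm ratios of hairpins outside these 5 were not determined, so the hairpins without overlap have no background share. The Mir675 difference rested on P0 replicate 3 with its 0 reads of the 3p arm: it was −0.99 with all 6 libraries and −0.03 without that library, and −1.96 with a pseudocount of 0.1 and −2.32 from reads.

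Summed over arms, the H19 locus had 115 ± 24.7 TPM (SD, n = 3) before birth and 8.86 ± 4.56 (SD, n = 3) at birth, a 13.0-fold fall. With all 6 libraries it was the only locus of the 4 whose stages did not overlap (exact permutation p = 0.1, the smallest possible, and 0.4 adjusted over 4 loci). Among all tested miRNAs taken singly, 46.4% also lay lower at P0 without overlap, and 49.6% did not overlap in either direction. The Igf2 locus had 286 ± 119 and 403 ± 266 TPM (exact permutation p = 0.7), and the Gnas locus, with miR-298-3p included, had 1579 ± 618 and 2291 ± 898 TPM (exact permutation p = 0.4). The Mest locus had 23977 ± 4179 TPM before birth, then 39635, 3415 and 2288 TPM in P0 replicates 1 to 3 (exact permutation p = 0.4). After median-of-ratios scaling the log2 difference of the locus sums was −2.43 for H19 (−3.65 in TPM), −0.51 for Mest (−1.81 in TPM), 1.53 for Igf2 (0.24 in TPM) and 1.83 for Gnas (0.53 in TPM), with exact permutation p-values of 0.1, 0.7, 0.3 and 0.2. With P0 replicate 1 left out, none of the 4 loci overlapped between the stages in TPM: H19 (−3.98) and Mest (−3.09) were lower at P0 and Igf2 (1.04) and Gnas (0.92) higher. The exact permutation p was then 0.1, the smallest possible, for H19 and Mest and 0.2 for Igf2 and Gnas. The share of all miRNAs without overlap was not determined with that library left out, so the count of loci has no background. By level the loci thus kept the order Mest, Gnas, Igf2 and H19 in each of the 6 libraries. Igf2 and H19 lay closest, at 157 and 131 TPM in E14.5 replicate 1.

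Across all tested miRNAs, the members were spread widely in rank. miR-675-3p ranked 11th and miR-675-5p 47th from the lowest of 670 in TPM, and 8th and 56th after scaling. At the other end miR-296-3p ranked 48th and miR-298-5p 80th from the highest in TPM, and 35th and 60th after scaling. The 2 miR-483 arms ranked 110th and 111th from the highest in TPM. Fold change also moved with base composition: across the 582 tested miRNAs with a sequence, Spearman's rho between GC content and log2 fold change was 0.38 in TPM and 0.35 after scaling. These miRNAs share libraries and are not independent, and the part of base composition in the members' differences was not tested. Among the members, the miR-335 arms had the lowest GC (30.4% and 36.4%) and negative changes in TPM, and miR-296-3p (68.2%) and miR-298-5p (65.2%) had high GC and positive ones. The miR-675 arms, which fell, had 63.6% and 54.5%, miR-296-5p, at −1.21, had 66.7%, and the miR-483 arms, at 0.17 and 0.16, had 54.5% and 61.9%.

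**Figure D4:**
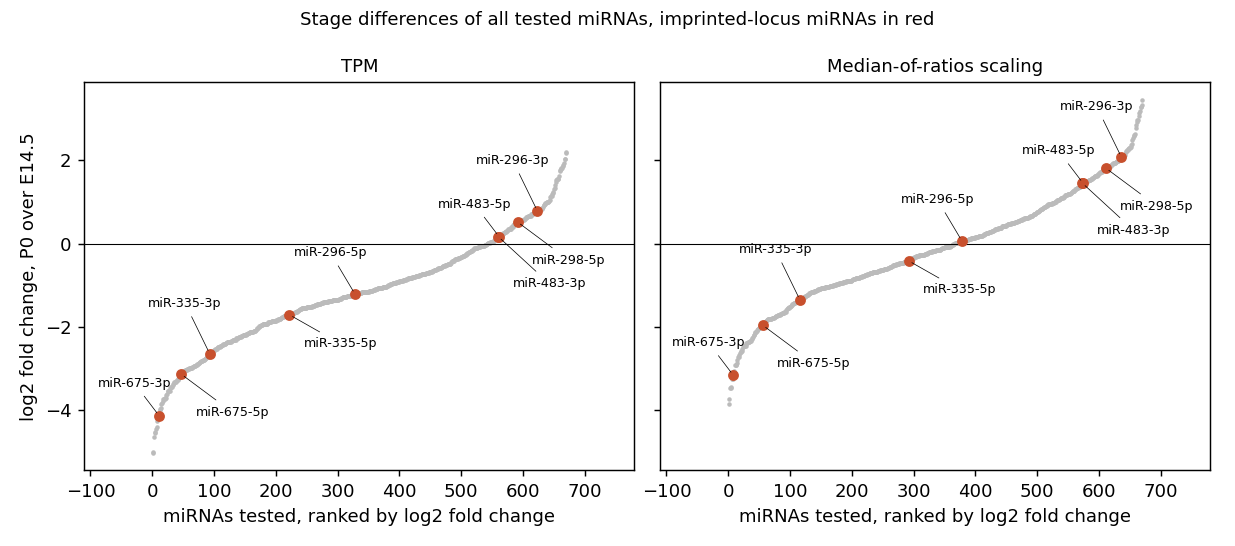
All 670 tested miRNAs ranked by log2 fold change from E14.5 to P0 in TPM (left) and after median-of-ratios scaling (right), with the 9 imprinted-locus miRNAs in red. The miR-675 arms lie at the low end and miR-296-3p, miR-298-5p and the miR-483 arms above 0 in both panels, while miR-296-5p moves from −1.21 to 0.06.

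With P0 replicate 1 left out, 7 of the 9 members were called in TPM (5 lower, 2 higher), where 61.0% of all tested miRNAs were called, 53.0% lower and 7.98% higher. After scaling 8 of 9 were called (4 lower, 4 higher), where 48.0% of all were, 25.4% lower and 22.6% higher. The miR-675 and miR-335 arms were then lower and the miR-483 arms, miR-296-3p and miR-298-5p higher after scaling, leaving miR-296-5p uncalled. In TPM the stages of 4 of the 9 members did not overlap with all libraries, each lower at P0 (miR-675-5p, miR-675-3p, miR-335-3p and miR-296-5p), against 46.4% of all tested miRNAs in that direction, 3.13% in the other and 49.6% in either.

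The 2 other imprinted miRNA groups were taken by position. In the Dlk1-Dio3 domain 91 of 103 miRNAs were tested, of which 34 were called lower and 1 higher in TPM (34.2% of all tested miRNAs were called), with a median log2 fold change of −1.33. After scaling, 7 were called lower and 3 higher (10.9% of all were called), with a median of −0.27. In the Sfmbt2 intron 28 of 45 miRNAs were tested, of which 18 were called lower in TPM and 1 after scaling, with medians of −2.00 and −0.88. The difference between these groups and the 9 members was not tested. Without P0 replicate 1, 42 Dlk1-Dio3 miRNAs (19 higher, 23 lower) and 18 Sfmbt2 miRNAs (all lower) were called after scaling, where 48.0% of all were called.

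For each locus the most abundant member was compared with the 423 other miRNAs averaging 10 TPM or more. Likeness was the root mean square difference over the 6 libraries between log2(TPM + 1) profiles, each centred on its own mean. For miR-335-5p the closest were miR-135a-5p (0.35), miR-26b-5p (0.39) and miR-15b-3p (0.45), where the median over all compared was 1.29. miR-135a-5p had 285, 202 and 310.0 TPM at E14.5 and 498, 38.2 and 24.2 TPM at P0, so P0 replicate 1 was the highest library there too. For miR-298-5p they were miR-181a-2-3p (0.19), miR-3970 (0.25) and miR-1981-5p (0.27), against a median of 1.35. The closest to miR-483-3p were miR-485-5p (0.15), miR-1291 (0.29) and miR-3099-3p (0.30), against 1.31. miR-675-3p was less closely matched, by miR-96-5p (0.55), miR-186-3p (0.61) and miR-493-5p (0.68), against 1.71. Among the members themselves, miR-296-3p and miR-298-5p were the closest pair (0.23), followed by miR-483-3p and miR-298-5p (0.25), from different chromosomes. The arms of 1 hairpin were farther apart, at 0.69 for Mir483, 0.84 for Mir335, 1.10 for Mir675 and 1.35 for Mir296.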

How the data were processed

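Each of the 6 samples was 1 small RNA library from a litter pool of nephron progenitors, prepared, per the labels' protocols, with a QIAseq kit. The authors deposited 1 table of 1104 rows with a TPM value per sample, and, per the file headers, their baseMean (a mean signal), log2 fold change with its standard error, test statistic (a score), p-value and adjusted p-value. The submitters' processing notes name mm10, featureCounts and DESeq2 1.26.0, with no roles. The aligner and the use of molecular tags are not given in the sources used here. Their fold changes were read as P0 relative to E14.5, which the per-sample values follow.

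Multiplied by the row's end minus its start, 100% of deposited TPM values were whole multiples (within 0.01) of 1 step per sample, which gave reads. These reads, scaled by median-of-ratios factors from 589 rows, equalled the authors' baseMean to within a relative difference of 4.77e-15. The 52 multi-copy miRNAs were each taken from their most abundant row. The fixed design assumed TPM and was followed: limma 3.58.1 (R 4.3.3), trended variances, log2(TPM + 1), mean of at least 1 TPM, stage as the only term, Benjamini-Hochberg adjustment over all tested miRNAs, two-sided. Log2(TPM + 1) understates the change of low miRNAs. That limma procedure was first run on simulated counts with known changes, as a check of the code only. Locus sums and arm ratios were tested by exact two-sided permutation over libraries (scipy 1.17.1). Intervals and floors of 3 reads cover counting error only, and p-values the spread between litter pools.

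The members, lists and tests were chosen with earlier results of these data known. Named miRNAs were the 9 members and, per locus, the 3 miRNAs closest to the most abundant member. Outside this rule, miR-298-3p (the other arm of Mir298) and miR-486a-3p (a marker at 0) are named. Gene context came from GENCODE M21 and sequences from RefSeq. Alternatives were 2 other scalings (median-of-ratios, upper-quartile), limma-voom on reads, other filters and pseudocount, summed copies, leaving out the most abundant miRNA, a replicate block and leaving out each library. Leaving out libraries under median-of-ratios scaling, scaled marker sums and P0 ranks without P0 replicate 1 were added after seeing the data.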

Additional observations from a re-analysis of the deposited data

How the results depend on the processing

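The 3 calls in TPM held under the filters, pseudocount 0.1, summed copies and removal of the most abundant miRNA, with 3 members called each time. Median-of-ratios scaling called 73 of all miRNAs instead of 229 (10 instead of 35 in the Dlk1-Dio3 domain, 1 instead of 18 in the Sfmbt2 intron). Upper-quartile scaling called 66 in all and 0 members, with an unadjusted limma p under 0.05 for 6 members and 217 of all 670 miRNAs. Limma-voom called 28 in all and 0 members, with an unadjusted limma p under 0.05 for 5 members and 192 of all 670. miR-296-5p changed sign to 0.064 after median-of-ratios scaling, 0.25 after upper-quartile scaling and 0.058 with limma-voom, and the Mir483 arm ratio, at −0.00463 otherwise, was 0.00469 with a pseudocount of 0.1 and 0.00641 from reads. The cause of these changes was not tested.

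Leaving out each library in turn gave 2 to 7 members called and 72 to 420 miRNAs in all in TPM, 13 to 53 in the Dlk1-Dio3 domain and 5 to 24 in the Sfmbt2 intron. The lowest count of members, 2, came without E14.5 replicate 3. The change of miR-483-5p then ran from −0.52 to 1.39, that of miR-483-3p from −0.19 to 0.70, the Igf2 sum from −0.24 to 1.04 and the Mir483 arm ratio from −0.69 to 0.35. The negative changes of the miR-483 arms and of the Igf2 sum came without E14.5 replicate 1 (−0.25, −0.18 and −0.14), P0 replicate 2 (−0.52, −0.19 and −0.24) or P0 replicate 3 (−0.37, −0.02 and −0.08), and the arm ratio without these was 0.07, 0.33 and 0.35.

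Leaving out libraries after median-of-ratios scaling, chosen after seeing the data, gave 8 members without P0 replicate 1 and 0 without any other library. All called miRNAs then numbered 331 without P0 replicate 1, 7 without E14.5 replicate 2, 2 without P0 replicate 3 and 0 without the other 3, where limma's unadjusted p was under 0.05 for 138, 137 and 145. In the Dlk1-Dio3 domain these counts were 42, 1, 1 and 0, and in the Sfmbt2 intron 18, 0, 0 and 0. miR-335-5p turned to 0.30 without P0 replicate 3, and miR-296-5p was 0.044, 0.16 and 0.26 without E14.5 replicate 1, E14.5 replicate 2 and P0 replicate 3.

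The replicate number as a block called 3 members and 247 miRNAs in TPM and, with median-of-ratios scaling, 77 miRNAs, among them miR-296-3p (limma adjusted p = 0.0322), miR-298-5p (0.0345) and miR-675-3p (0.0461), but not miR-675-5p (0.0542). There miR-296-5p was at 0.064. Same-numbered libraries correlated at 0.193, 0.183 and 0.042 in their deviations from the stage means, and differently numbered ones at −0.182 to 0.077. Each E14.5 library correlated highest with the P0 library of its own number. P0 replicate 3, however, correlated higher with E14.5 replicate 2 (0.077) than with E14.5 replicate 3 (0.042). Whether the numbers pair the samples was not tested, and the main fits kept stage as the only term.

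Few reads stood behind the miR-675 arms in P0 replicates 2 and 3 (77 and 121, and 92 and 0, for 5p and 3p) and behind miR-298-3p (28 to 196 per library). With 3 litter pools per stage, no exact test on locus sums or arm ratios could pass 0.05.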
